A study of Mus musculus with 12 samples.

Results

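*Hic1* and *Rflna* are 2 genes with few reads in the mouse kidney that were chosen by their large decrease after SK-124, an inhibitor of the salt-inducible kinases SIK2 and SIK3, and they are 2 of the 55401 genes in the deposited tables. Whole kidneys of male C57BL6 mice, 8 weeks old, were profiled by RNA-Seq after a single intraperitoneal injection of SK-124 at 40 mg/kg or of its vehicle, 15% 2-Hydroxypropyl-beta-cyclodextrin. Each group held 6 mice and each mouse gave 1 library, with totals of 19244227 to 19771802 expected counts. The study asked whether SIK inhibition acts on the kidney as parathyroid hormone does, through 1,25-vitamin D synthesis. Its readout gene *Cyp27b1*, the enzyme that makes 1,25-vitamin D, was at 5.46 ± 2.16 CPM (counts per fixed library total, TMM-normalized) with vehicle and 32.4 ± 9.12 CPM with SK-124 (mean ± SD, n = 6), without overlap between the groups. *Cyp24a1*, the enzyme that breaks 1,25-vitamin D down, was at 77.5 ± 43.8 and 15.4 ± 15.2 CPM, and SK-124 mouse 4, at 44.6 CPM, lay above the lowest vehicle mouse at 41.3 CPM. Markers of the labeled tissue were abundant: *Slc34a1*, the phosphate transporter of the proximal tubule, averaged 4749 CPM with vehicle and 4527 CPM with SK-124.

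HIC1 is a transcriptional repressor of the BTB zinc finger family, proteins that join a BTB domain for protein contacts to DNA-binding zinc fingers. It is a target of p53, works with the corepressor CtBP, represses *Sirt1*, and marks quiescent mesenchymal progenitor cells in several tissues. Refilin A, the product of *Rflna*, binds filamins, the proteins that cross-link actin filaments, and is known together with its paralog refilin B (*Rflnb*) from cartilage and skeletal development. SIKs hold the CREB coactivators (CRTCs) in the cytoplasm by phosphorylating them, so SIK inhibition lets CRTCs act with CREB on DNA in the nucleus.

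*Hic1* (ENSMUSG00000043099.4) lies on the minus strand of mouse chromosome 11 at chr11:75164565-75169519, and *Rflna* (ENSMUSG00000037962.7) on the plus strand of chromosome 5 at chr5:125003221-125012547 (GRCm38, GENCODE M21). *Hic1* has a coding transcript of 2 exons and 3497 bases and a short noncoding transcript of 645 bases that starts within the intron of the first. *Rflna* has 2 coding transcripts, of 1681 and 1649 bases, and a noncoding one of 590 bases. No annotated gene overlapped either of them. The lengths in the deposited tables match these models, and they bear on how few *Hic1* reads there were: the RefSeq gene reaches 736 bases farther upstream and 3188 bases farther downstream than the GENCODE model, which starts at its start codon, so any reads there fell outside the counted *Hic1* exons. The downstream stretch runs over 3072 bases of *Smg6*, a gene on the opposite strand that ends 116 bases short of the GENCODE *Hic1* model.

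The 250 bases before the RefSeq starts of *Hic1* are shown because CREB with its CRTCs acts at CRE sites and because the 2 *Hic1* transcripts start apart. The first window, chr11:75170256-75170505, lies upstream of the gene, and the second, chr11:75168153-75168402, lies in the intron of the coding transcript just before the short one (both RefSeq, GRCm38.p6, minus strand, printed 5′ to 3′). Capitals mark matches on either strand to the CCAAT box (CCAAT), the GC box (GGGCGG), the CRE half-site (TGACG) or the core of the HIC1 recognition sequence (GGGCA).
Hic1 upstream window: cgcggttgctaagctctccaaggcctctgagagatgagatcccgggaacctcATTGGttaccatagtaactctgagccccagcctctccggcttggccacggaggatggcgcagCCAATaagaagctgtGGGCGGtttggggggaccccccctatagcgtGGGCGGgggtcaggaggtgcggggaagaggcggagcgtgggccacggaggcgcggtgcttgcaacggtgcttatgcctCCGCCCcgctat
Hic1 intron window: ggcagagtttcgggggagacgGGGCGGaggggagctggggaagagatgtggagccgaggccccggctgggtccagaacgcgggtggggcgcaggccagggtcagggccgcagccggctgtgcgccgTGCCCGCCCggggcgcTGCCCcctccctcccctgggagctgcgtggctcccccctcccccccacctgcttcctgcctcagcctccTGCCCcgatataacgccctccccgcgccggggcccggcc
The upstream window held 2 CCAAT boxes and 3 GC boxes, and neither of the other motifs. The intron window held 2 GC boxes and 3 copies of GGGCA, of which the first overlaps a GC box, and no CCAAT box. TGACG was in neither window. Of 32851 RefSeq windows of the same length, 33.8% held a CCAAT box, 32.7% a GC box, 47.8% GGGCA and 17.8% TGACG, and the GC content was 64.4% and 77.2% in the *Hic1* windows against a median of 52.4%. A match describes the letters in these windows only.

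*Hic1* was counted in every mouse. The 6 vehicle mice, in order of mouse number, had 76, 68, 91, 71, 116 and 59 expected counts, RSEM's estimate of the reads from a gene. The 6 SK-124 mice had 16, 5, 8, 19, 21 and 17. The highest SK-124 mouse held fewer reads than the lowest vehicle mouse. All values were whole numbers, with a posterior SD of 0 in RSEM, so no *Hic1* or *Rflna* read was shared out with another gene. After TMM normalization, vehicle mice ranged from 2.80 to 5.50 CPM with a median of 3.67, and SK-124 mice from 0.292 to 1.05 CPM with a median of 0.894. The group means were 3.94 ± 0.974 and 0.754 ± 0.307 CPM (SD, n = 6), a log2 fold change of -2.36 (SE 0.24) in the fit across all genes. The lowest vehicle mouse stood 2.66 times above the highest SK-124 mouse.

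*Rflna* had fewer reads than *Hic1* in every mouse except SK-124 mouse 2. Vehicle mice had 27, 35, 45, 43, 33 and 31 expected counts, and SK-124 mice had 6, 6, 5, 12, 12 and 2. Here too no SK-124 mouse reached the lowest vehicle mouse, and mouse 6 of the SK-124 group held the fewest reads of any mouse for either gene. Normalized values ran from 1.33 to 2.30 CPM with vehicle (median 1.65) and from 0.101 to 0.601 CPM with SK-124 (median 0.349). The means were 1.76 ± 0.390 and 0.379 ± 0.192 CPM (SD, n = 6), a log2 fold change of -2.18 (SE 0.27), and the groups were 2.22-fold apart at their nearest mice. No p is given for these 2 decreases, since the genes were selected on them. In whole tissue, fewer cells of a type and less RNA per cell cannot be told apart.

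**Figure D1:**
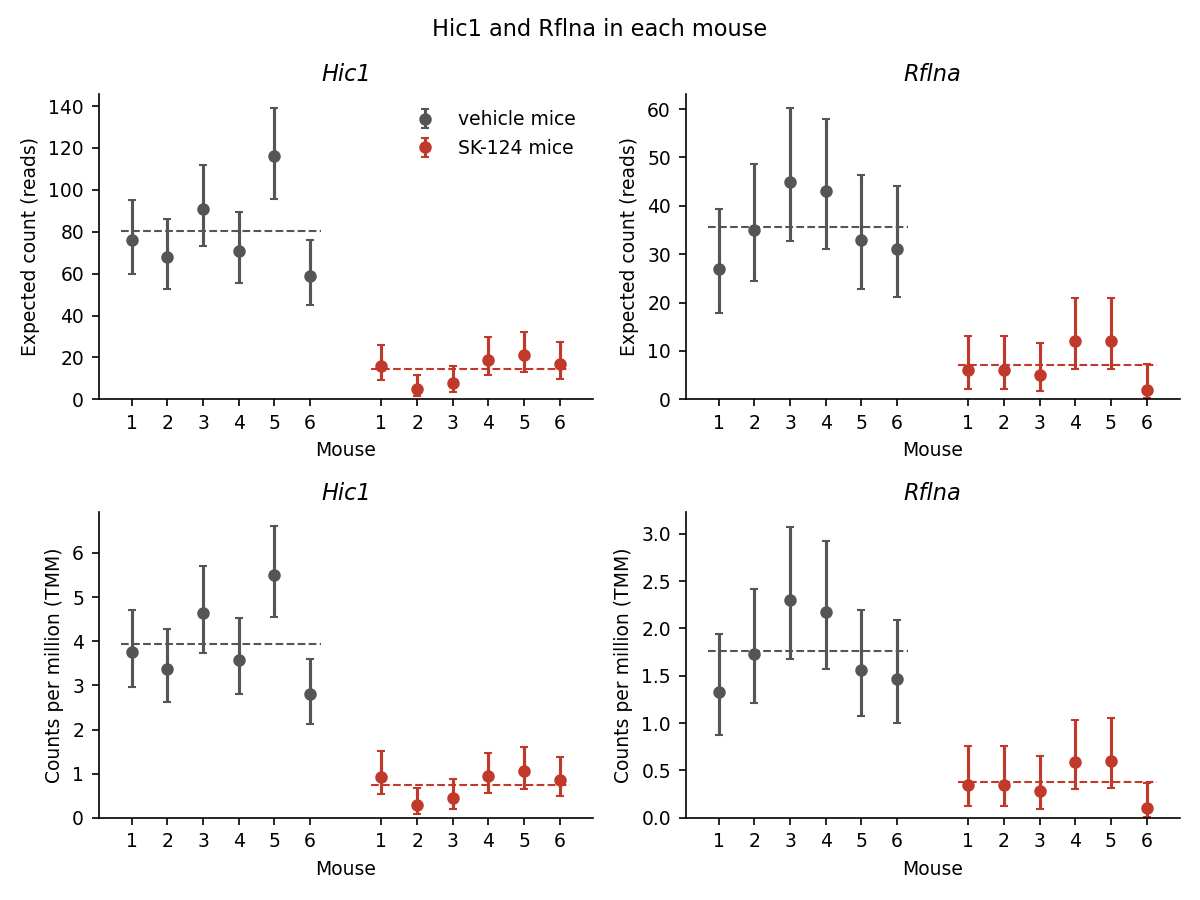
Expected counts (top, reads) and TMM-normalized CPM (bottom) of *Hic1* (left) and *Rflna* (right) in each of 6 vehicle (gray) and 6 SK-124 (red) mice. Points are mice, bars are exact Poisson 95% intervals for counting error alone, and dashed lines are group means. All SK-124 points lie below all vehicle points, with at most 21 *Hic1* reads and 12 *Rflna* reads.

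Such small counts limit the precision of the SK-124 values more than that of the vehicle values. A CPM of 1 stood for 20.3 reads in an average vehicle library and 18.7 in an average SK-124 library. For *Hic1*, the 5 reads of SK-124 mouse 2 have an exact Poisson 95% interval of 1.62 to 11.7 reads, and the 19 of mouse 4 one of 11.4 to 29.7. The upper bounds of all 6 SK-124 mice, at most 1.61 CPM, lay below the lowest lower bound of a vehicle mouse, 2.13 CPM. For *Rflna*, the 2 reads of SK-124 mouse 6 have an interval of 0.242 to 7.22 reads. The upper bounds of 4 SK-124 mice lay below the lowest vehicle lower bound of 0.879 CPM, while those of mice 4 and 5 reached up to 1.05 CPM. That is still under the lowest vehicle value itself. RSEM's own credibility bounds on TPM, a level per transcript length, were wider: for *Rflna* the upper bound of SK-124 mouse 5, 1.25 TPM, lay above the lower bound of every vehicle mouse, whereas for *Hic1* the highest upper bound of an SK-124 mouse, 0.693 TPM, lay below the lowest vehicle bound, 0.732 TPM.

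Summed over mice, *Hic1* had 481 reads in the vehicle group and 86 in the SK-124 group. Scaled to the libraries, the SK-124 level was 19.5% of the vehicle level, a ratio of 5.14 between vehicle and SK-124 with a 95% interval of 4.08 to 6.54 that covers counting error only. *Rflna* had 214 and 43 reads, a level of 21.9%, and a ratio of 4.57 with an interval of 3.28 to 6.502. The 2 intervals overlap over most of their length, and the decreases of the 2 genes were not told apart by them.

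The spread estimated from the 6 mice of a group was larger than counting alone gives, and this excess was not tested. The coefficient of variation of *Hic1* CPM was 24.7% among vehicle mice, where counting error at those depths gives 11.2%, and 40.8% among SK-124 mice, where it gives 26.7%. For *Rflna* the values were 22.2% against 16.7% and 50.6% against 37.7%. The largest and smallest values of a group differed 1.97-fold with vehicle and 3.60-fold with SK-124 for *Hic1*, and 1.72-fold and 5.93-fold for *Rflna*. SK-124 mice 1 to 3 had a larger share of counts in their 10 highest genes (44.4% to 46.8%) than mice 4 to 6 (38.6% to 40.2%) or the vehicle mice (39.9% to 43.2%). *Hic1* stood at 0.556 ± 0.331 CPM in SK-124 mice 1 to 3 and 0.951 ± 0.0958 CPM in mice 4 to 6 (SD, n = 3), and *Rflna* at 0.326 ± 0.0398 and 0.432 ± 0.287 CPM. The log2 fold change of *Hic1* was -2.81 (SE 0.32) with mice 1 to 3 alone and -2.04 (SE 0.24) with mice 4 to 6 alone, and that of *Rflna* was -2.41 (SE 0.30) and -1.997 (SE 0.36). No label assigns these mice to batches, and the part of this split in the decrease was not tested.

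Both genes sat low among the 14159 genes that passed edgeR's filter on low counts. In vehicle mice, 25.8% of tested genes had a lower mean CPM than *Hic1* and 14.7% a lower one than *Rflna*. Across all tested genes, 13.5% were lower with SK-124 at an FDR under 0.05 (1917 genes) and 10.8% higher (1536 genes). With counts scaled to library totals only, 3058 were lower and 777 higher. In 6.65% all SK-124 mice lay below all vehicle mice (942 genes), which both members did by the rule that chose them. Ordered by log2 fold change from the lowest, the genes that passed that FDR, averaged 1 CPM or more and did not overlap between groups began with *Dusp9* at -2.48, *Hic1*, *Cish* at -2.33, *Igkc* at -2.24 and *Rflna*, and the genes just outside were *Nuak2* at -2.10, *Cx3cr1* at -2.10 and *Hcar1* at -2.05. The steps beside *Hic1* and *Rflna* in this order were smaller than the SE of either gene. *Rflna*, at a mean of 1.07 CPM, was just above the level threshold, and *Wdr86* at -3.28 and *Cd180* at -3.10, with means of 0.742 and 0.748 CPM, fell below it.

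**Figure D2:**
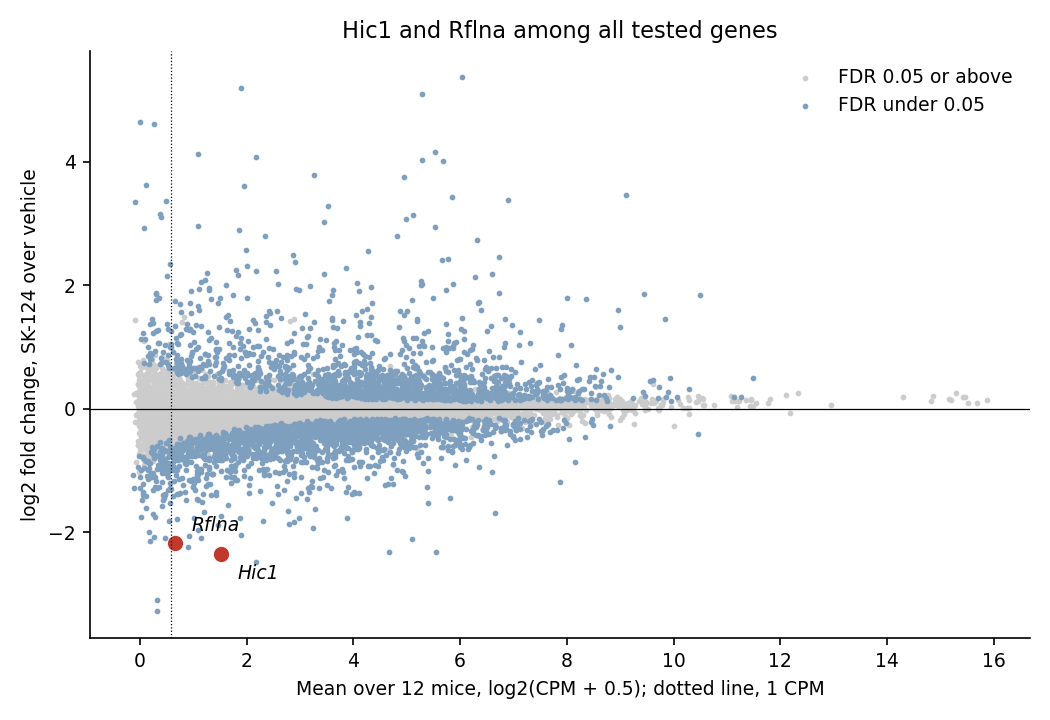
Log2 fold change of SK-124 over vehicle (y axis) against the mean level over 12 mice as log2(CPM + 0.5) (x axis) for all 14159 tested genes, with genes at an FDR under 0.05 in blue, the others in gray and *Hic1* and *Rflna* in red. The dotted line marks 1 CPM, and both genes lie at the lower edge of the cloud among the genes of low level.

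The processing moved these fold changes little except where a constant was large beside the level. *Hic1* also moved, to -2.81, with SK-124 mice 1 to 3 alone. With each mouse left out in turn, *Hic1* stayed between -2.48 and -2.20 and *Rflna* between -2.36 and -1.98. The *Rflna* value closest to 0 came from leaving out SK-124 mouse 6, the mouse with 2 reads. On log2(TPM + 0.1) the fold changes were -2.23 and -2.12, and on log2(TPM + 1) they were -0.92 and -0.91, since adding 1 to levels near 1 TPM compresses them. Neither gene could be tested under a filter of at least 10 counts in every mouse.

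**Figure D3:**
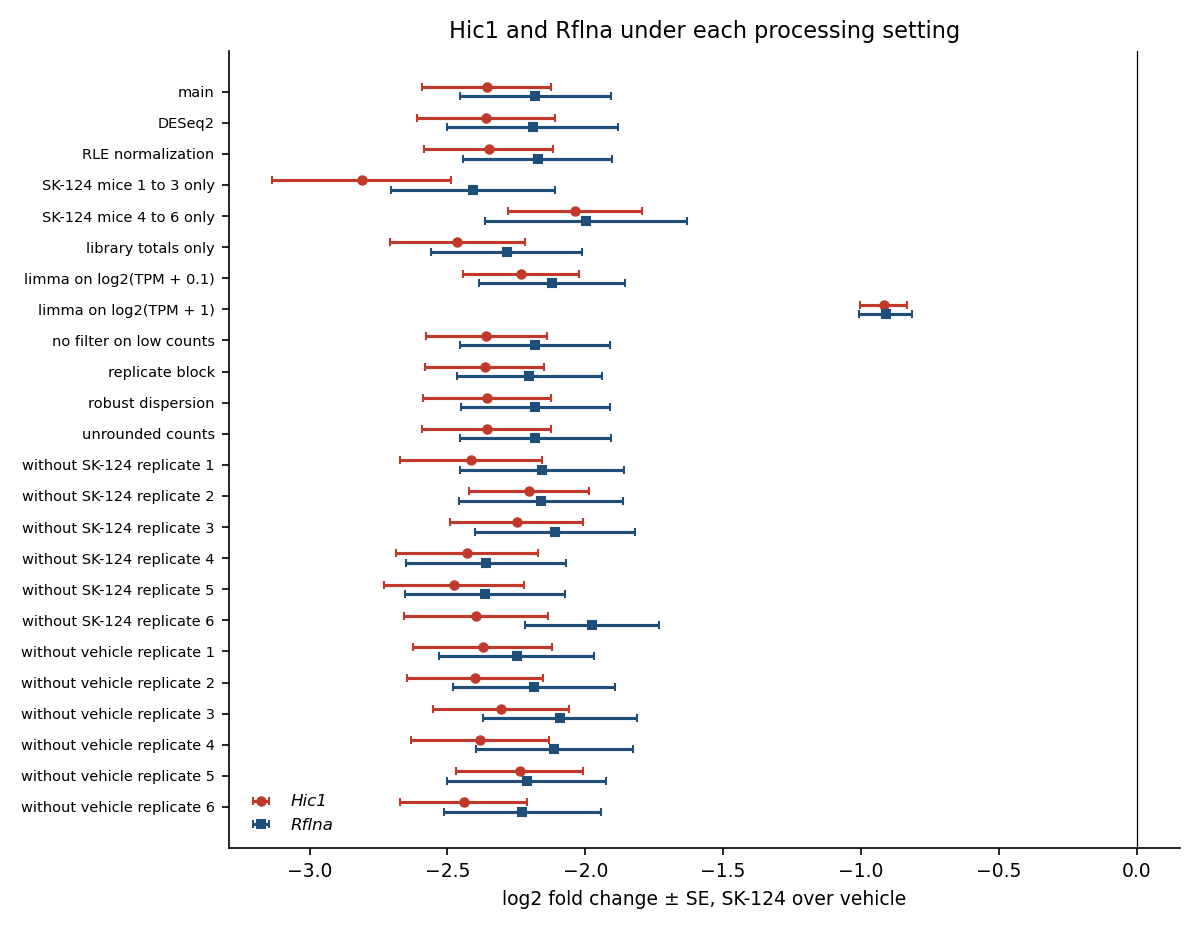
Log2 fold change of SK-124 over vehicle with its SE (x axis) for *Hic1* (red circles) and *Rflna* (blue squares) under each processing setting (rows). All points lie below 0, and all except those on log2(TPM + 1) lie between -2.81 and -1.98.

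Per length, the 2 genes had like levels in vehicle kidneys, although *Hic1* had more reads. *Hic1* was at 1.28 ± 0.321 TPM and *Rflna* at 1.39 ± 0.276 TPM with vehicle (SD, n = 6), a gap smaller than either SD. With SK-124 they were at 0.198 ± 0.0857 and 0.273 ± 0.191 TPM, again within the spread of the mice. *Hic2*, the paralog of *Hic1*, was at 0.333 ± 0.0612 TPM with vehicle and 0.373 ± 0.0924 TPM with SK-124. *Hic1* thus stood above *Hic2* in every vehicle mouse by group range (0.94 to 1.86 against 0.23 to 0.40 TPM), whereas the SK-124 ranges of 0.08 to 0.30 and 0.27 to 0.49 TPM overlapped.

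Reads were divided among transcripts only in part. RSEM's transcript-weighted length of *Hic1* equaled that of the coding transcript in 2 of 6 vehicle mice and 5 of 6 SK-124 mice. The other vehicle mice, numbers 3, 4, 5 and 6, had lengths of 3276, 2838, 3099 and 2267 bases, which correspond to 7.75%, 23.1%, 14.0% and 43.1% of transcripts being the short one. In SK-124 mouse 2, with 5 reads, the length of 2802 bases corresponds to 24.4%. The mean length was 3079 ± 470 bases with vehicle and 3381 ± 284 bases with SK-124 (SD, n = 6), a difference of 302 bases that was within the spread (adjusted p = 0.545 in a two-sided exact permutation test, adjusted over 2 genes). *Rflna* had mean lengths of 1384 ± 191 and 1460 ± 232 bases, a difference of 75.4 bases (adjusted p = 0.567, same exact test). No shift between transcripts was detected, and the size of shift that these read numbers could show was not tested.

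No common order of *Hic1* and *Rflna* among mice of one group was detected, and how strong a correlation 6 mice could show was not tested. Across the 6 vehicle mice, Pearson's r of their log2(CPM + 0.5) values was 0.226 and Spearman's rho 0.200 (exact permutation p = 0.658 and 0.714). Across the 6 SK-124 mice, r was 0.282 and rho 0.600 (exact permutation p = 0.569 and 0.242). All 4 had an adjusted p of 0.714 over the 4 values. Without the 2 mice farthest from the median of *Hic1*, r was 0.458 with vehicle and 0.830 with SK-124, each over only 4 mice. Spearman's rho over the same mice was 0.4 with vehicle and 1.0 with SK-124. On log2(TPM + 0.1), the vehicle values turned negative, to -0.22 and -0.43, and the SK-124 values were 0.38 and 0.66.

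The genes around *Hic1* fell less than *Hic1* or not at all, a difference that follows from its choice by a large decrease. Of 17 annotated genes within 250 kb of *Hic1*, 8 were tested, of which 2 fell, against 13.5% of all tested genes, and 0 rose, against 10.8% (edgeR, with 0 rising also at an unadjusted p under 0.05 and in DESeq2). The median log2 fold change of the 8 was -0.15, against -0.01 over all tested genes. *Rtn4rl1*, a receptor of the Nogo receptor family that starts 24.3 kb upstream of *Hic1* on the opposite strand, fell from 12.5 ± 1.55 to 6.39 ± 0.974 CPM (SD, n = 6), a log2 fold change of -0.96 (edgeR FDR = 3.0e-06). *Smyd4*, a SET and MYND domain gene 179 kb upstream, fell by 0.34 on the log2 scale (edgeR FDR = 0.022). That call was lost without vehicle mouse 1 (edgeR FDR = 0.0557) or without SK-124 mouse 6 (edgeR FDR = 0.0568), and in limma on log2(TPM + 0.1) (adjusted p = 0.0746). *Ovca2* and *Dph1*, the tested genes closest upstream, had log2 fold changes of -0.16 and 0.09 (edgeR FDR = 0.095 and 0.518), and *Smg6*, 116 bases beyond the 3′ end, -0.09 (edgeR FDR = 0.310). *Rpa1* was at -0.15 (edgeR FDR = 0.051), and passed the threshold without vehicle mouse 1 (edgeR FDR = 0.037). *Srr* and *Serpinf1* were at -0.05 and -0.28. The microRNA genes *Mir212* and *Mir132*, known CREB targets that lie 3.87 and 4.16 kb upstream of *Hic1*, had 0 counts in every mouse. Whether these libraries capture such short RNAs was not tested, so the 0 counts do not show that the locus was silent. *1700016P03Rik*, a longer noncoding gene that spans both, had at most 4 counts in a mouse and was not tested.

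Around *Rflna*, 2 of 7 annotated genes examined were tested, of which 1 fell, against 13.5% of all tested genes, and 0 rose, against 10.8% (edgeR, with 0 rising also at an unadjusted p under 0.05, and in DESeq2 0 in either direction). *Ccdc92*, a coiled-coil protein gene 141 kb upstream, fell by 0.28 on the log2 scale (edgeR FDR = 0.024). The call was lost without vehicle mouse 4 (edgeR FDR = 0.0513), without SK-124 mouse 2 (edgeR FDR = 0.0526) and without SK-124 mouse 4 (edgeR FDR = 0.0550). *Zfp664* was at 0.05 (edgeR FDR = 0.732), and turned to -0.03 without vehicle mouse 3. *Dnah10* had at most 14 counts in a mouse and was not tested.

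**Figure D4:**
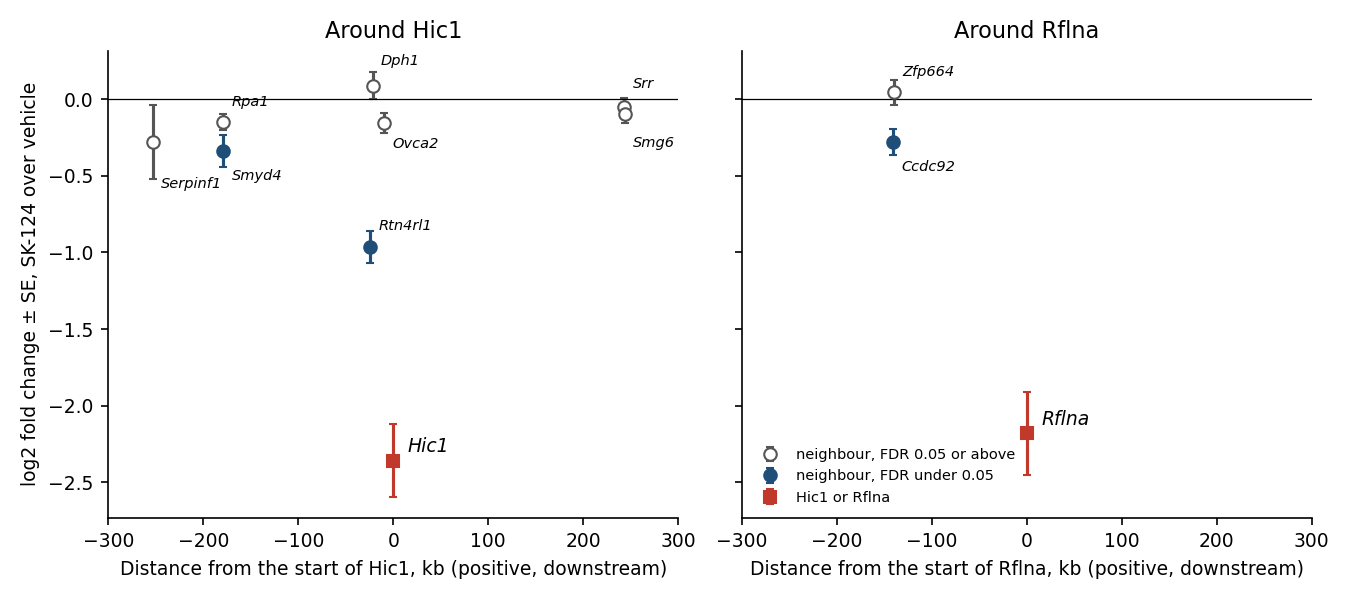
Log2 fold change of SK-124 over vehicle with its SE (y axis) for tested genes within 250 kb of *Hic1* (left) and *Rflna* (right), against the distance between gene starts in kb (x axis, positive is downstream). Filled circles are neighbors at an FDR under 0.05 and open circles the others. The red squares are *Hic1* and *Rflna*, both below every neighbor, a place that follows from their choice.

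*Rflnb* fell less than *Rflna*, which was chosen by its decrease, and *Flna* rose in the reported fit. Of 4 filamin and refilin genes examined, 3 passed the filter, and *Flnc*, with at most 19 counts in a mouse, did not. *Rflnb* fell from 21.5 to 16.7 CPM, a log2 fold change of -0.37 (SE 0.07, edgeR FDR = 0.0011). *Flna*, the widely expressed filamin A, rose from 40.1 to 49.2 CPM, by 0.30 (SE 0.09, edgeR FDR = 0.020). The *Flna* call was lost without vehicle mouse 1 (edgeR FDR = 0.0507) and with library totals only (edgeR FDR = 0.215). It was also lost with SK-124 mice 1 to 3 alone (edgeR FDR = 0.250). On log2(TPM + 0.1) and log2(TPM + 1) *Flna* did not pass either (adjusted p = 0.754 and 0.755 in limma). Per length, *Rflnb* was at 6.00 ± 0.611 TPM with vehicle, well above *Rflna*, and at 4.21 ± 0.740 TPM with SK-124.

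*Hic1* had the lowest log2 fold change of the BTB zinc finger genes, a place that follows from its choice. Of 46 family members, 44 were tested, and without *Hic1* 5 of 43 rose and 8 fell, against 10.8% and 13.5% of all tested genes, with a median of -0.06 against -0.01 over all tested genes. The next lowest were *Zbtb12* at -0.93 (edgeR FDR = 5.9e-05), *Zbtb46* at -0.73 (edgeR FDR = 0.0011), known from classical dendritic cells and endothelium, and *Zbtb1* at -0.58 (edgeR FDR = 3.2e-05). At the other end *Zbtb16*, encoding the repressor PLZF, rose from 2.19 to 74.5 CPM, by 5.09 (edgeR FDR = 3.5e-12). *Bcl6*, a repressor of B cell and metabolic genes, rose by 1.10 (edgeR FDR = 0.018), but not with robust dispersion estimates (edgeR FDR = 0.077) or with SK-124 mice 1 to 3 alone (edgeR FDR = 0.205). *Hic2* was at 0.27 (SE 0.14, edgeR FDR = 0.191). By mean TPM, *Hic1* was in place 29 of 46 with vehicle, between *Zbtb40* at 1.48 ± 0.387 and *Zbtb39* at 1.15 ± 0.118 TPM, from which it did not differ beyond the spread. With SK-124 it was in place 44, between *Zbtb32* at 0.237 ± 0.0802 and *Zbtb8b* at 0.183 ± 0.0550 TPM, again within the spread.

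**Figure D5:**
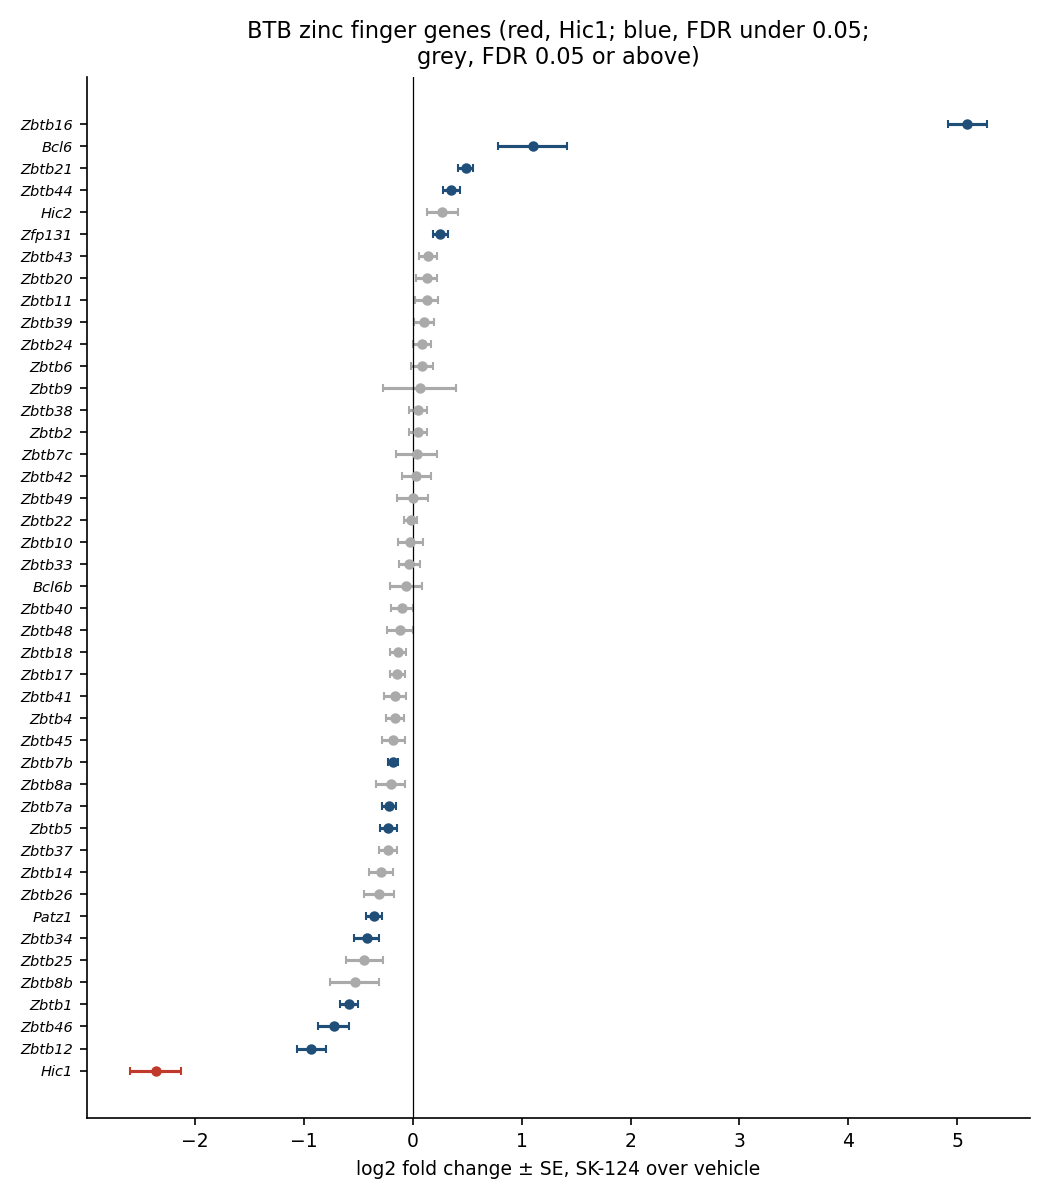
Log2 fold change of SK-124 over vehicle with its SE (x axis) for the 44 tested BTB zinc finger genes (rows, ordered by fold change), with *Hic1* in red, genes at an FDR under 0.05 in blue and the others in gray. *Zbtb16* stands at 5.09 and *Hic1* at -2.36, and the other genes lie between -0.93 and 1.10.

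Of 9 genes tied to HIC1 as partners, relatives or regulators, all were tested, and 1 rose and 1 fell, against 10.8% and 13.5% of all tested genes. *Sirt1*, a deacetylase that HIC1 represses and also works with, rose from 10.6 to 12.4 CPM, by 0.23 (SE 0.07, edgeR FDR = 0.017). The *Sirt1* call was lost when counts were scaled to library totals only (edgeR FDR = 0.373). It was also lost with SK-124 mice 1 to 3 or 4 to 6 alone (edgeR FDR = 0.137 and 0.0583). In limma on log2(TPM + 0.1) and log2(TPM + 1) it did not pass either (adjusted p = 0.507 and 0.508). *Chd4*, the remodeler of the NuRD complex, fell by 0.26 (SE 0.05, edgeR FDR = 0.0014). The corepressor genes *Ctbp1* and *Ctbp2* were at -0.06 and -0.19 (edgeR FDR = 0.375 and 0.052), and *Trp53*, whose product activates *Hic1*, at -0.19 (edgeR FDR = 0.066).

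Among 13 genes examined that are known from earlier work as targets of HIC1 repression, 12 were tested. Of these, 5 rose, against 10.8% of all tested genes, and 3 fell, against 13.5%, and the median was 0.12 against -0.01 over all tested genes. In DESeq2 6 rose and 3 fell, and in limma on log2(TPM + 0.1) 3 rose and 3 fell. The list was chosen with earlier results of these data known, and a link of these changes to *Hic1* was not tested. *Cdkn1a*, the cell cycle inhibitor p21, rose from 9.66 to 104 CPM, by 3.43 (SE 0.12, edgeR FDR = 1.9e-12). *Fgfbp1*, a carrier of fibroblast growth factors, rose by 1.80 (edgeR FDR = 5.5e-08) and *Trp53inp1*, a p53 target, by 1.59 (edgeR FDR = 3.0e-10). *Efna1* rose by 0.42 (edgeR FDR = 0.0072), and *Sirt1* as given above, a call lost in the settings listed there. The reelin receptor *Lrp8*, the chemokine receptor *Ackr3* and cyclin D1 (*Ccnd1*) fell, with log2 fold changes of -1.32, -1.01 and -0.94 (edgeR FDR = 0.0016, 2.5e-06 and 3.3e-07). *Epha2*, *Sox9*, *E2f1* and *Cdkn1c* did not pass the test, with values from -0.15 to 0.28.

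*Hic1* is known from mesenchymal cells, and some markers of interstitial fibroblasts were lower beside it. Of 12 such markers, 11 were tested, 4 fell in edgeR, against 13.5% of all tested genes, 0 rose, against 10.8%, and 7 did not pass, with a median of -0.38 against -0.01 over all tested genes. Again 0 rose also at an unadjusted p under 0.05 and in DESeq2. *Tcf21*, a transcription factor whose cell type whole-kidney RNA does not give, fell from 14.2 to 3.72 CPM, by 1.93 on the log2 scale (SE 0.16, edgeR FDR = 1.1e-07). *Pdgfrb*, the platelet-derived growth factor receptor of stromal and mural cells, fell by 0.93 (edgeR FDR = 5.4e-05), *Col1a2* by 0.45 (edgeR FDR = 0.016) and *Vim* by 0.38 (edgeR FDR = 0.0081). With SK-124 mice 4 to 6 alone, *Col1a2* and *Vim* did not pass (edgeR FDR = 0.192 and 0.161). *Pdgfra* and *Dcn*, defining markers of these cells, were at -0.10 and -0.04 (edgeR FDR = 0.718 and 0.847), and *Dpt* was at 0.53 (edgeR FDR = 0.158). *Col1a1*, *Col3a1*, *Lum* and *Meox1*, which also did not pass, were at -0.47, -0.42, -0.27 and -0.23. The summed level of the list ran from 186 to 269 CPM with vehicle and from 118 to 213 CPM with SK-124, so the groups overlapped, and no marker was at 0 throughout. The part of these markers in the decrease of *Hic1* was not tested.

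Markers of smooth muscle and mural cells did not move one way. Of 6 tested, 2 rose, against 10.8% of all tested genes, and 1 fell, against 13.5%. *Tagln* and *Acta2* rose by 0.55 and 0.41 (edgeR FDR = 0.0052 and 0.045) and *Cspg4* fell by 0.31 (edgeR FDR = 0.019). The summed levels overlapped (75.9 to 97.2 CPM with vehicle, 86.2 to 107 CPM with SK-124). The *Acta2* call was lost without any one of vehicle mice 1, 2, 4 and 5 and SK-124 mice 1, 3, 4 and 6, with edgeR FDR values up to 0.121. *Tagln* did not pass on log2(TPM + 0.1) (adjusted p = 0.0905 in limma), where 0 of the 6 rose, and neither *Tagln* nor *Cspg4* did with SK-124 mice 1 to 3 alone (edgeR FDR = 0.0872 and 0.265). Of 6 endothelial markers, 2 fell in edgeR, against 13.5% of all tested genes, and 0 rose, against 10.8%, with 0 rising also in DESeq2. *Ehd3* and *Kdr* fell by 0.87 and 0.85 (edgeR FDR = 2.7e-05 and 0.00065). *Cdh5*, the 1 that rose at an unadjusted p under 0.05, was at 0.29 (edgeR FDR = 0.098) and *Pecam1* at 0.07 (edgeR FDR = 0.697). *Emcn* and *Plvap* were at -0.24 and -0.21 (edgeR FDR = 0.176 and 0.126). Among 5 immune markers, 4 were tested, of which 2 fell, against 13.5% of all tested genes, and 0 rose, against 10.8%. *Cd79a*, a B cell receptor component, and *Cd68* of macrophages fell by 1.75 and 0.60 (edgeR FDR = 0.00063 and 0.0021), the latter not with SK-124 mice 4 to 6 alone (edgeR FDR = 0.0527). The summed immune level was 9.42 to 13.8 CPM with vehicle and 6.96 to 8.88 CPM with SK-124, without overlap. Among single tested genes, 6.65% were lower in all SK-124 mice than in all vehicle mice. The part of the immune level in the 2 decreases was not tested.

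The genes most like *Hic1* over all 12 mice, by Pearson's r of log2(CPM + 0.5) among genes averaging 1 CPM or more, were *Sema6c* (r = 0.977), *Rgs3* (r = 0.973), *Klhdc8a* (r = 0.973), *Tnk2* (r = 0.973) and *Tnfaip2* (r = 0.972). Those most like *Rflna* were *Osgin1* (r = 0.974), *Sema4g* (r = 0.966), *Spsb4* (r = 0.965), *Olfm1* (r = 0.964) and *Smco4* (r = 0.964). All 10 were lower with SK-124, with log2 fold changes from -1.39 to -0.27, and these r values rest mostly on the difference between the groups. Once each group's mean was taken away, *Cactin* (r = 0.872), *Tnk2* (r = 0.867), *Tceanc* (r = 0.851), *5730409E04Rik* (r = 0.846) and *Trim62* (r = 0.834) were most like *Hic1*. For *Rflna* these were *Pax8* (r = 0.947), *Sf3b4* (r = 0.893), *Tesk1* (r = 0.864), *Leng9* (r = 0.862) and *Dda1* (r = 0.856). These are the highest r values in a search among 13008 genes over 12 mice. How high r reaches by chance in such a search was not tested. *Tnk2* alone was among the first 5 on both measures for *Hic1*, and no gene was for *Rflna*. *Rflna* itself ranked 155 in likeness to *Hic1* over the 12 mice (r = 0.912) and 3110 once group means were removed (r = 0.261).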

How the data were processed

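RNA from whole kidneys of 12 mice was sequenced on a BGISEQ500 instrument. The submitters' processing notes name STAR 2.7.2b, RSEM 1.3.0 and the build mm10, and the use of strand and the annotation are not given in the sources used here. The authors deposited a gene table per mouse with the expected count (estimated reads, not normalized) and TPM, which the authors' RSEM run scaled to effective length and library. The deposited posterior SD of counts, credibility bounds and transcript-weighted lengths were also read. Expected counts were rounded to whole numbers, TMM-scaled, filtered by filterByExpr and entered into the quasi-likelihood test of edgeR, FDR being the Benjamini-Hochberg adjusted p. Library totals were 19244227 to 19771802. Of 55401 identifiers, 54349 matched GENCODE M21 with their version number and 55141 with or without it. The deposited identifiers are therefore not all those of M21. *Hic1*, *Rflna* and the gene lists (filamins and refilins, HIC1 partners, reported HIC1 targets, BTB zinc fingers, cell markers) were chosen with earlier results of these data known. Genes named are the members, their paralogs and filamins, tested neighbors within 250 kb, up to 4 called genes of the largest change per list, the 5 most alike on each measure, the 3 on either side in the order of decreases, *Cyp27b1* and *Cyp24a1*. Certain genes of these lists and neighborhoods are not reported here and stand in no count of them. Other list members named were chosen after their values were seen. Exact Poisson and binomial 95% intervals cover counting error only, since reads without molecular identifiers are not independent molecules. The mice are separate animals. Alternatives were DESeq2, RLE, library totals, other low-count filters, unrounded counts, robust dispersion, a replicate block, mice left out, limma with TPM on the log2 scale after adding 0.1 or 1, and SK-124 mice 1 to 3 or 4 to 6. The edgeR fit was tested on simulated counts, and DESeq2 and limma were not. No pair of mice in a group looked like 1 library (smallest chi-square per degree of freedom 4.69). Scripts ran in Python 3.11.15 (scipy 1.17.1, pandas 2.3.3, numpy 2.4.6) and R 4.3.3, where DESeq2 1.42.0, edgeR 4.0.16 and limma 3.58.1 were used.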

Additional observations from a re-analysis of the deposited data

Results flagged for a closer look

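For *Hic1* and *Rflna* themselves, no mouse stood apart from its group in CPM by Dixon's test at the 95% level. The transcript-weighted length of *Hic1* stood apart in SK-124 mouse 2, at 2802 bases, where the other 5 mice shared one length and the mouse had 5 reads. Single mice stood apart in 14 further values, each given in CPM. Among the family and list genes these were *Rflnb* at 18.5 and *Hic2* at 1.54 in vehicle mouse 2, *Cdkn1a* at 7.64 and *Aqp2* at 143 in vehicle mouse 5, and *Hsd11b2* at 138 in vehicle mouse 3. In the SK-124 group these were *Pdgfrb* at 8.12 in mouse 3, *Col1a2* at 44.8 in mouse 6, *Slc4a1* at 41.9 in mouse 5 and *Cyp24a1* at 44.6 in mouse 4. Among neighbors these were *Rtn4rl1* at 15.6 in vehicle mouse 5, *Serpinf1* at 2.51 in vehicle mouse 6, *Zfp664* at 31.0 in vehicle mouse 3 and *Srr* at 143 in SK-124 mouse 2. *Igkc*, an immunoglobulin gene that stands next to *Rflna* in the order of decreases, was at 7.61 in vehicle mouse 4. Of 136 groups of values examined, 15 stood apart, where chance gives about 1 in 20.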

How the results depend on the processing

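*Hic1* and *Rflna* kept their direction in every alternative that gave them a value. *Hic1* moved beyond the spread of the mice to -2.81 with SK-124 mice 1 to 3 alone and to -0.92 on log2(TPM + 1), and *Rflna* to -0.91 on log2(TPM + 1). With each mouse left out, *Hic1* ranged from -2.48 to -2.20 and *Rflna* from -2.36 to -1.98. Genes called lower numbered 1233 with SK-124 mice 1 to 3, 1267 with mice 4 to 6 and 3058 with library totals only, and genes called higher numbered 777 with library totals only, 498 on log2(TPM + 0.1) and 500 on log2(TPM + 1). Library totals moved the median of all tested genes to -0.12, and log2(TPM + 0.1) to -0.14. Listed genes called higher, 14 in the reported fit, numbered 7 with SK-124 mice 1 to 3, 9 with library totals, 7 on log2(TPM + 0.1) and 6 on log2(TPM + 1), and those called lower numbered 43 with library totals. Neighbors called lower numbered 1 with SK-124 mice 4 to 6 and 6 with library totals. Replicate numbers are shared between groups but belong to different mice, and deviations of same-numbered mice correlated between -0.13 and 0.22, above 0.1 in 2 of 6 pairs. The replicate block gave -2.37 for *Hic1*, -2.20 for *Rflna*, 1893 genes lower, 1573 higher, 15 listed genes higher and 24 lower, and among neighbors 3 lower and 0 higher. The correlation of *Hic1* with *Rflna* among vehicle mice turned to -0.22 (r) and -0.43 (rho) on log2(TPM + 0.1), and ranged from -0.034 to 0.60 (r) and from -0.10 to 0.40 (rho) with a mouse left out. Among SK-124 mice it ranged from 0.066 to 0.71 (r) and from 0.30 to 0.90 (rho) with a mouse left out. Among genes named, *Dph1* turned to -0.022, *Zfp664* to -0.071, *Pax8* to -0.044 and *Dda1* to -0.034 with library totals. On log2(TPM + 0.1) *Zfp664* turned to -0.088, *Tceanc* to 0.016, *Pax8* to -0.10 and *Dda1* to -0.10, and on log2(TPM + 1) these were at -0.081, 0.017, -0.10 and -0.094. *Tceanc* turned to 0.013 with SK-124 mice 4 to 6. With a mouse left out, *Serpinf1* ranged from -0.36 to 0.0076, the latter without vehicle mouse 6, and *Zfp664* from -0.029, without vehicle mouse 3, to 0.068. None of these 6 genes passed the test in the reported fit. The filter of at least 10 counts in every mouse left no value for *Hic1* or *Rflna*, which had fewer in SK-124 mice. Other causes were not tested. Depth limits the SK-124 values most, at 2 to 21 reads per mouse.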

Other observations

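Markers of the proximal tubule, thick limb, distal convoluted tubule and podocytes had 0 calls in edgeR, whereas collecting duct markers moved in both directions. Of 6 proximal tubule markers, 0 passed edgeR's test, 0 had an unadjusted p under 0.05, 0 passed in DESeq2, and 1 was lower in limma on log2(TPM + 0.1). Their summed level was 7496 to 8414 CPM with vehicle and 6979 to 8801 CPM with SK-124. The 2 thick limb and 2 distal convoluted tubule markers had 0 calls in edgeR or DESeq2, with 1 thick limb marker at an unadjusted p under 0.05. Of 4 podocyte markers examined, 0 passed in edgeR or DESeq2, 1 was lower at an unadjusted p under 0.05, and 1 was lower in limma on log2(TPM + 0.1). Of 4 collecting duct markers, the water channel *Aqp2* rose by 0.75 (edgeR FDR = 0.00085), and *Slc4a1* and *Hsd11b2* fell by 0.59 and 0.35 (edgeR FDR = 0.00012 and 1.0e-04). Over all tested genes, 10.8% rose and 13.5% fell. *Ren1*, the juxtaglomerular marker, was at 0.55 (edgeR FDR = 0.062). Of 3 adrenal markers only *Star* was tested, at 0.21 (edgeR FDR = 0.646).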
